A study of Mus musculus with 3 samples.

Results

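The CD300 and paired immunoglobulin-like receptors of myeloid cells were followed in 10 genes across the 3 libraries of the series. The genes were Cd300a, Cd300c2, Cd300e, Cd300lb, Cd300ld, Cd300lf, Pilra, Pirb, Lilrb4a and Lilr4b. They were chosen by name and not by a cut on their values, but with earlier results of these data known. The paper had already reported Cd300lf as high in SC monocytes and maintained in APCs. All 10 were found among the 22238 genes listed in every library. The cells came from female C57BL/6J mice aged 10 to 12 weeks with EAE, which models multiple sclerosis in mice. Every library was labelled as wild type. All mice received MOG peptide in complete Freund's adjuvant under the skin and 250 ng of pertussis toxin into the peritoneum at 2 and 24 h, so every library carries this treatment and none came from an unimmunized mouse. At days 14 to 15, bone marrow (BM) monocytes were sorted as CD45+ CD11b+ Ly6Chi Ly6G- CD11c- cells, spinal cord (SC) monocytes as CD45+ CD11b+ CD64+ Ly6Chi Ly6G- cells, and SC monocyte-derived antigen-presenting cells (APCs) as CD45+ CD11b+ CD64+ Ly6Clow/- Ly6G- cells. BM monocytes were pooled from 13 mice in 2 experiments, and each SC population from 18 mice in 3 experiments. Each population was sequenced as 1 library. No difference between populations therefore has a replicate check, and every interval given here covers counting error only, in which PCR copies are not independent molecules.

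The receptors of these families sit in the plasma membrane of monocytes, macrophages, granulocytes and dendritic cells, and they come in pairs that bind related ligands. The inhibitory partner has a long cytoplasmic tail with immunoreceptor tyrosine-based inhibitory motifs (ITIMs), which recruit the phosphatases SHP-1 and SHP-2 when phosphorylated. The activating partner has a short tail and signals through an adaptor with an activating motif, DAP12 (Tyrobp) or the Fc receptor gamma chain (Fcer1g). The partners arose by gene duplication, and long stretches of their coding sequence stayed alike. Short reads from such stretches may have to be divided between genes.

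The 6 CD300 genes lie on chromosome 11 of GRCm38, between 114890041 and 115133992. Pilra lies at chr5:137821952-137836281 and Pirb at chr7:3711409-3720391, both on the minus strand. The gp49 genes Lilr4b (chr10:51480632-51486703) and Lilrb4a (chr10:51490956-51496611) are neighbours on the plus strand. The codons after the last membrane segment were searched for the ITIM consensus, on the coding strand only. For each gene the complete coding transcript with the most matches was taken, and length decided only between equal ones. The motif was found in 5 of the 10 genes, 3 times in Pirb, 2 times each in Cd300a, Cd300lf and Lilrb4a, and once in Pilra. It was found in none of the others, nor in Pira2, Pilrb1, Pilrb2 or Lilra6. Of 7640 genes with such a membrane segment, 26.3% held the motif in the same search, so a match is a description of the tail and not of its use. The coding sequences around 1 motif of each gene are shown because they separate the inhibitory genes from their partners, with the codons of the motif in capitals (GENCODE M21 transcripts, 5′ to 3′ on the coding strand). They lie at chr11:114899825-114901149 (plus strand, across 2 exons) for Cd300a, chr11:115117627-115117686 (minus) for Cd300lf, chr5:137823550-137823767 (minus, across 2 exons) for Pilra, chr7:3713841-3714124 (minus, across 2 exons) for Pirb and chr10:51496000-51496059 (plus) for Lilrb4a.
Cd300a: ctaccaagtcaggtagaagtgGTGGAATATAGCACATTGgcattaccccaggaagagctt
Cd300lf: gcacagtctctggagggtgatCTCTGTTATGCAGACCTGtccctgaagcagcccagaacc
Pilra: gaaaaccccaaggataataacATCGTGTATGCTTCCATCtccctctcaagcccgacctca
Pirb: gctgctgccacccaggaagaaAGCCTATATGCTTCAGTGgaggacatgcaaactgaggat
Lilrb4a: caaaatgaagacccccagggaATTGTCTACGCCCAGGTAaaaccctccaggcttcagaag

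Upstream of these tails the partners are close to identical over stretches longer than the 50-base reads. Lilrb4a and Lilr4b shared a run of 96 bases in the stretch shown, at chr10:51494062-51494178 and chr10:51483762-51483878, and Cd300a and Cd300c2 a run of 139 bases that reaches beyond theirs, at chr11:114893426-114893545 and chr11:115000678-115000797. The 120 bases of Pirb at chr7:3716217-3716336 were the same in its activating partner Pira2 at chr7:3841100-3841219, within a shared run of 303 bases. The stretches are shown because a single 50-base read from most of their length matches either gene. The reads were paired, and a mate outside the stretch may still separate the genes. Capitals mark the bases at which the partners differ.
Lilrb4a: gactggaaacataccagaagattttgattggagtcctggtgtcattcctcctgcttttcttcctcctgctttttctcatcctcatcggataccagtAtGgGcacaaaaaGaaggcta
Lilr4b: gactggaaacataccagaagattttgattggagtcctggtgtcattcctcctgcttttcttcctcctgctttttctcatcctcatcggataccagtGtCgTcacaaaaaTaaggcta
Cd300a: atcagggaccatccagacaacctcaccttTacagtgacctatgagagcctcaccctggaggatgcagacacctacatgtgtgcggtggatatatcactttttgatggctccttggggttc
Cd300c2: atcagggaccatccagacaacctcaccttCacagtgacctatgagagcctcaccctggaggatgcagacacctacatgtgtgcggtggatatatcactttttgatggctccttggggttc
Pirb: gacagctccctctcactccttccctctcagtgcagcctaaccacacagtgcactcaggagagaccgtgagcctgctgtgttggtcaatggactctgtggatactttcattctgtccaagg

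Levels are given as TPM, a share of all transcripts after correction for length, rescaled to the same sum over the common genes. Changes between 2 libraries are given on the log2 scale, from reads divided by size factors (the median-of-ratios method). Each is the middle of a gamma posterior, with the bounds that enclose 98% of it. After the definition of GFold, a gene was called where both bounds lay beyond a 2-fold change in 1 direction and either library had over 3 TPM of it (an active gene). The 3 comparisons share libraries pairwise and are not independent of each other. The scales are not interchangeable. From BM to SC monocytes, the median active gene lay 0.45 lower in log2(TPM + 1), and 0.16 lower when reads were scaled by their totals, than on the scaled reads. The deposited reads summed to between 27283795 and 33280643 per library. The tables of both monocyte libraries listed 54432 genes and that of the APCs 22242, so the APCs were quantified on another set of transcripts. The sorted cells had the monocyte genes their labels call for, with 9 of 9 monocyte markers over 3 TPM in each comparison and a summed level of 11176 TPM in BM monocytes, 10122 TPM in SC monocytes and 4306 TPM in APCs. Ly6c2, Ccr2 and Plac8 were called lower in APCs than in SC monocytes, and Ly6C itself was used in the gate.

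From BM to SC monocytes, the receptor set changed its makeup. Lilrb4a, Lilr4b, Cd300lf, Pilra and Cd300c2 rose by 3.20- to 20.7-fold, Cd300a and Cd300lb fell by 3.36- and 6.24-fold, and Pirb and Cd300ld stayed within a 2-fold change. The 20.7-fold rise was that of Lilr4b by its assigned reads, and the division of reads at its locus is described further on. Of the 9 active members, 5 were called higher, where 13.6% of 10072 active genes were, and 2 lower, where 11.0% were. The median log2 change was 1.68 over the 9 members and -0.17 over all active genes. With an assumed coefficient of variation of 0.4 between libraries, 3 members (Lilrb4a, Lilr4b and Cd300lf) were called higher and 0 lower. Of the 10072 active genes, 619 were called higher and 222 lower at that setting. The 5 genes with an ITIM gave 3 higher and 1 lower calls, and the 5 without gave 2 and 1. The summed level of the 10 genes was 1020 TPM in BM monocytes, 2583 TPM in SC monocytes and 1431 TPM in APCs. Genes with an ITIM made up 79.0% of that sum in BM monocytes, 66.0% in SC monocytes and 65.5% in APCs. With Gm49339, a gene that has the coding sequence of Lilrb4a and is described further on, these shares were 82.7%, 73.1% and 76.5%, so the order of the SC libraries turned. These are pooled bulk libraries, in which fewer cells of a type and less RNA per cell cannot be told apart.

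**Figure D1:**
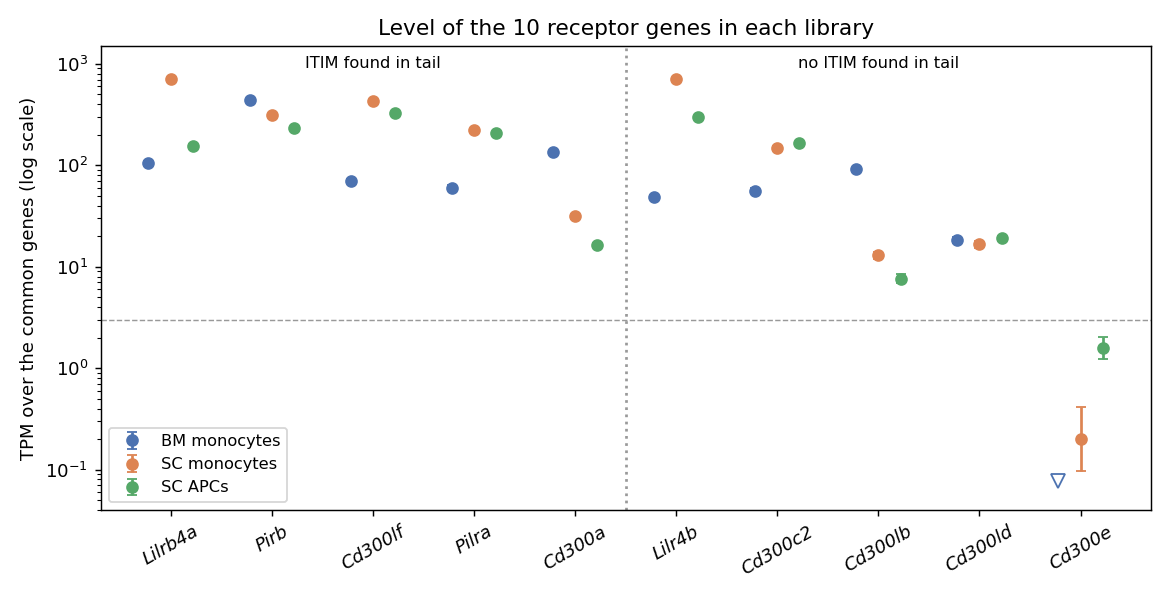
Level of each of the 10 receptor genes in BM monocytes, SC monocytes and SC APCs, in TPM on a log axis, with bars for the 95% Wilson interval from the read counts (most are smaller than the point), the dashed line at 3 TPM, and the open triangle at the level of 3 reads where Cd300e had 0. Lilrb4a and Lilr4b were highest in SC monocytes at 709 and 702 TPM, and Cd300a and Cd300lb were highest in BM monocytes at 134 and 91.6 TPM.

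Among the inhibitory receptors, Lilrb4a (gp49B) carries ITIMs and restrains mast cells, neutrophils and macrophages. Its level was 106 TPM in BM monocytes, 709 TPM in SC monocytes and 155 TPM in APCs. By the reads assigned to Lilrb4a alone, the SC monocytes stood apart from both other libraries. Their log2 change against BM monocytes was 3.06 (98% bounds 3.005 and 3.12). Summed with Gm49339, which has the same coding sequence, the level was 325 TPM in BM monocytes, 1391 TPM in SC monocytes and 821 TPM in APCs. In SC monocytes, Lilrb4a and Lilr4b, at 702 TPM, were the 2 most abundant of the 10 genes, and their 95% intervals overlapped.

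Cd300lf (CLM-1) has ITIMs in its tail and binds phosphatidylserine and other lipids on dying cells. It stood at 69.8 TPM in BM monocytes, 429 TPM in SC monocytes and 329.6 TPM in APCs. Both SC libraries were well above the BM level, with a log2 change of 2.99 (98% bounds 2.92 and 3.06) for SC monocytes and 2.49 (98% bounds 2.42 and 2.57) for APCs against BM monocytes. In APCs it was the most abundant of the 10 genes.

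Pilra, the inhibitory member of the paired immunoglobulin-like type 2 receptors, recognizes sialylated glycoproteins. Its level was 60.3 TPM in BM monocytes, 222 TPM in SC monocytes and 206 TPM in APCs. The SC libraries were alike and both above the BM library, with a log2 change of 1.88 (98% bounds 1.78 and 1.97) for SC monocytes against BM monocytes. Between these SC libraries Pilra had a log2 change of 0.12 on reads and -0.03 per effective length.

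Pirb, which binds MHC class I and the myelin inhibitors of axon growth, was the most abundant member in BM monocytes, at 435 TPM against 313 TPM in SC monocytes and 231 TPM in APCs. The order of the TPM levels was BM, SC monocytes, APCs, but the scaled reads differed little. The log2 change was -0.19 (98% bounds -0.22 and -0.15) for SC against BM monocytes and -0.03 (98% bounds -0.06 and 0.01) for APCs against SC monocytes. Neither was called.

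Cd300a (CLM-8) is the ITIM receptor of the family that binds phosphatidylserine and phosphatidylethanolamine. It went against the other inhibitory CD300 gene, with 134 TPM in BM monocytes, 31.3 TPM in SC monocytes and 16.3 TPM in APCs. The log2 change was -1.75 (98% bounds -1.85 and -1.65) for SC against BM monocytes.

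The members without an ITIM moved in both directions too. Cd300lb (CLM-7), which signals through DAP12, had the steepest fall, from 91.6 TPM in BM monocytes to 12.99 TPM in SC monocytes and 7.62 TPM in APCs. Its log2 change was -2.64 (98% bounds -2.79 and -2.49) for SC monocytes and -3.23 (98% bounds -3.40 and -3.06) for APCs, each against BM monocytes. Cd300c2 (CLM-4), which pairs with DAP12 or the Fc receptor gamma chain, had 55.9 TPM in BM monocytes, 148 TPM in SC monocytes and 164 TPM in APCs. The rise of Cd300c2 was 1.68 (98% bounds 1.56 and 1.797) from BM to SC monocytes on the log2 scale. Cd300ld (CLM-5), a partner of the Fc receptor gamma chain, was nearly level, at 18.3, 16.6 and 19.04 TPM in BM monocytes, SC monocytes and APCs.

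Cd300e, a short-tailed member of the family, was near the detection limit. It had 0 reads in BM monocytes, 7 in SC monocytes and 61 in APCs, or 0.20 TPM and 1.59 TPM in the SC libraries. A level of up to 0.077 TPM, that of 3 reads, is compatible with the 0 reads in BM monocytes. Against this limit the scaled reads were at least 25.5-fold higher in APCs, with the 61 reads taken as they are. The 7 reads of SC monocytes did not stand clear of it, with 95% intervals that reached up to 0.098 TPM in BM monocytes and down to 0.097 TPM in SC monocytes. Its TPM stayed under 3 in all libraries, and it was left out of the calls.

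Markers of other cells also differed between BM and SC monocytes, in both directions. Of 12 neutrophil and granulocyte precursor markers, 8 were lower and 2 higher in SC than in BM monocytes. Their summed level was 1776 TPM in BM monocytes, 376 TPM in SC monocytes and 524 TPM in APCs, with none at 0 reads and the neutrophil gene Ly6g between 1.64 and 2.57 TPM. Of 8 microglia markers, 7 were higher in SC than in BM monocytes, with a sum of 14.5 TPM in BM monocytes, 97.5 TPM in SC monocytes and 256 TPM in APCs. Sall1 and Slc2a5 had 0 reads in BM monocytes. The part of these cells in the levels of Cd300a, Cd300lb and the rising receptors was not tested.

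**Figure D2:**
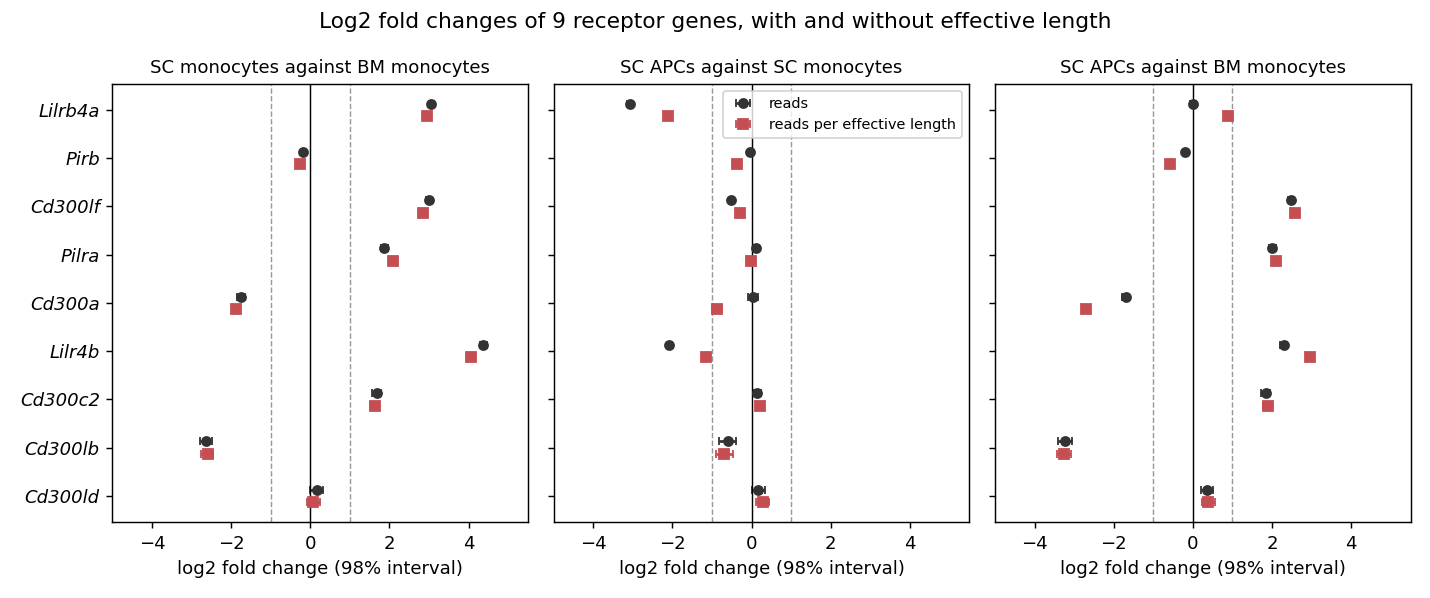
Log2 change of the 9 active receptor genes in each of the 3 comparisons, as medians with 98% bounds (bars), from scaled reads (circles) and from reads divided by effective length (squares), with dashed lines at a 2-fold change. Lilrb4a moved from -3.07 to -2.11 and Cd300a from 0.03 to -0.87 between the scales for APCs against SC monocytes, while the squares and circles of SC against BM monocytes lay close together.

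From SC monocytes to APCs, most of the receptors stayed within a 2-fold change. None of the 9 active members was called higher, where 1.94% of 9734 active genes were, and 2 were called lower, where 1.66% were. With the filter on TPM removed, Cd300e was called higher, with a log2 change of 2.86 (98% bounds 1.70 and 4.31). The 2 lower genes were the gp49 genes. Lilrb4a had a log2 change of -3.07 (98% bounds -3.14 and -3.01), and Lilr4b, which went from 702 to 301 TPM, had -2.09 (98% bounds -2.13 and -2.04). Lilrb4a summed with Gm49339, an annotated gene with the same coding sequence, had -1.01 and was not called, and the whole gp49 locus had -0.82 per effective length. Cd300lf (-0.51) and Cd300lb (-0.60) were lower on this scale and Cd300c2 (0.14) and Cd300ld (0.17) higher, all within a 2-fold change. Over the same step, 7 of 8 microglia markers were called higher and 3 of 9 monocyte markers lower. Their part in the values of the gp49 genes was not tested.

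APCs against BM monocytes gave 4 members called higher, where 14.0% of 10190 active genes were, and 2 lower, where 11.7% were. With an assumed coefficient of variation of 0.4 between libraries, 0 were called higher and 1 lower, beside 719 and 224 of the 10190 active genes. The genes called higher were Cd300lf, Pilra, Cd300c2 and Lilr4b, with log2 changes of 2.49, 2.01, 1.84 and 2.30. Those called lower were Cd300a (-1.70) and Cd300lb (-3.23). The log2 change of Lilrb4a was 0.01 (98% bounds -0.07 and 0.09) on reads and 0.89 (98% bounds 0.81 and 0.97) per effective length.

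The effective lengths in the APC table differed most from those of SC monocytes at the gp49 genes and Cd300a. The part of the transcript set in these differences was not tested. Effective length is the number of positions a fragment can start from, averaged over the transcripts of a gene by their estimated levels. From SC monocytes to APCs its ratio had a median of 1.05 over 9734 active genes, with 25% of them below 1.01 and 25% above 1.16. Lilrb4a went from 1747 to 977 bases, a ratio of 0.559, and Lilr4b from 1989 to 1121 bases, a ratio of 0.564. Only 0.308% and 0.329% of active genes had a lower ratio. In the annotation, 9 of the 14 transcripts of Lilrb4a and 8 of the 13 of Lilr4b were of the retained intron class. Cd300a went the other way, from 2171 to 4395 bases, a ratio of 2.02. Pirb had a ratio of 1.37, and the 6 other members between 0.937 and 1.20.

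These lengths carried over to the fold changes. Per effective length, the log2 change of Lilrb4a from SC monocytes to APCs was -2.11 (98% bounds -2.18 and -2.05) and that of Lilr4b -1.14 (98% bounds -1.19 and -1.10), still past a 2-fold change. Cd300a had equal scaled reads in both SC libraries, with 1318 and 1492 reads and a log2 change of 0.03 (98% bounds -0.10 and 0.16), but -0.87 (98% bounds -0.99 and -0.74) per effective length. The lower TPM of Cd300a in APCs than in SC monocytes thus came with a longer effective length and not with fewer scaled reads. Between the monocyte libraries, which share a transcript set, the ratio lay between 0.801 (Pilra) and 1.15 (Lilr4b), and the calls of all 10 genes were the same per effective length.

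**Figure D3:**
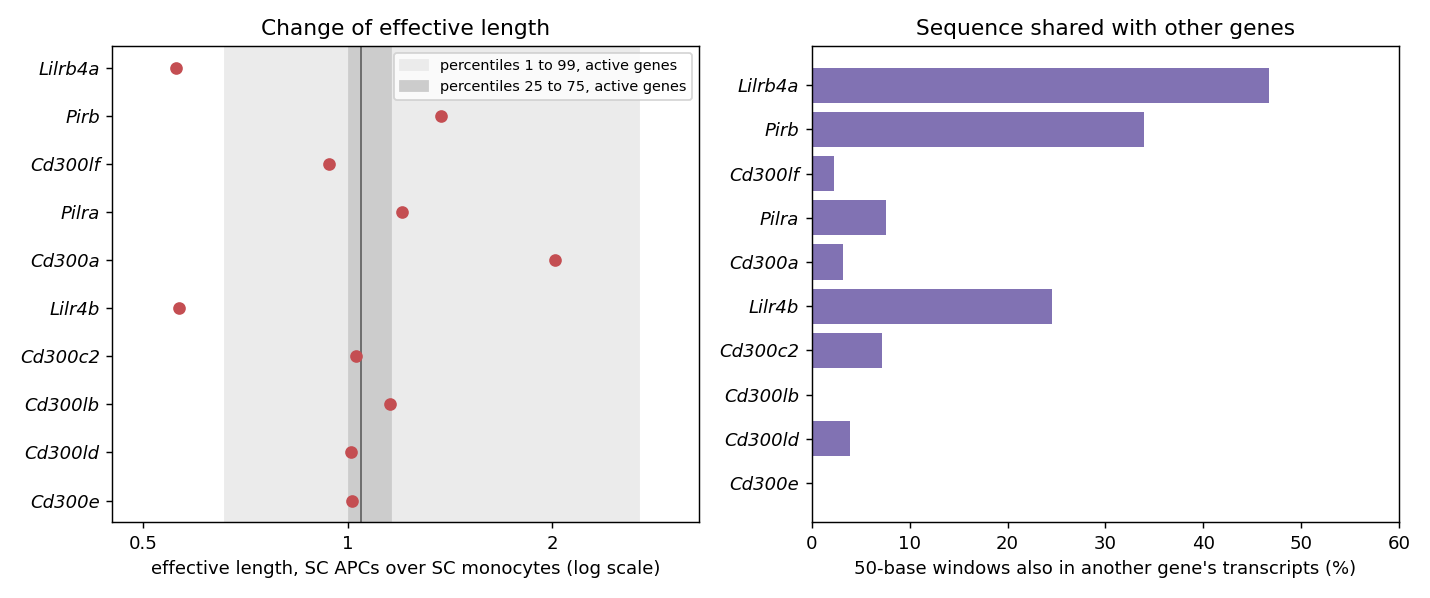
Left, ratio of effective length of each receptor gene, SC APCs over SC monocytes, on a log axis, with percentiles 1 to 99 and 25 to 75 of active genes shaded and their median as a line. Right, percent of the 50-base windows of a gene's transcripts that also occur in transcripts of another gene. Lilrb4a and Lilr4b lie to the left of both shaded ranges at 0.559 and 0.564, and Lilrb4a, Pirb and Lilr4b share the most sequence.

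Sharing of sequence fell into 3 classes. Of the 50-base windows in the annotated transcripts of a gene, 46.7% in Lilrb4a, 34.0% in Pirb and 24.5% in Lilr4b also occurred in another gene. The share was 7.57% in Pilra, 7.16% in Cd300c2, 3.89% in Cd300ld, 3.18% in Cd300a and 2.29% in Cd300lf. Cd300lb and Cd300e shared 0 of 2956 and 0 of 2039 windows. These were also the only members whose deposited read estimates were whole numbers (to within 1e-06) in all 3 libraries, while 7 had fractions in every library. The fall of Cd300lb is thus that of a gene with no 50-base window in common with another annotated gene. Cd300a and Cd300c2, which moved in opposite directions from BM to SC monocytes, had 91 windows in common, and their summed reads had a log2 change of -0.40 (98% bounds -0.46 and -0.33), which was not called. Per effective length the sum had 0.14, so its sign depended on the scale.

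At the gp49 locus, Lilrb4a shared more windows with a further gene, 1941, than with Lilr4b, 1505, while Lilr4b shared 782 with it. Gm49339 (chr10:51480612-51496613, plus strand) spans both gp49 genes, and all 3 of its transcripts are tagged as read-through. Its coding sequence, of 1005 bases, was identical to that of Lilrb4a, so that all 956 coding windows of Lilrb4a and 170 of the 860 of Lilr4b (19.8%) occurred in it. Within protein-coding transcripts alone, 94.5% of the windows of Lilrb4a were shared. Gm49339 had 5565 reads in BM monocytes, 15580 in SC monocytes and 18618 in APCs, beside 3953, 24016 and 3162 for Lilrb4a and 1795, 27046 and 7037 for Lilr4b. It held 49.2% of the reads of the locus in BM monocytes, 23.4% in SC monocytes and 64.6% in APCs. The division of reads within the locus thus differed between all 3 libraries, in 2 of which the transcript set was the same.

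The 3 genes together gave other values than Lilrb4a alone where APCs were compared. The locus stood at 373 TPM in BM monocytes, 2093 TPM in SC monocytes and 1122 TPM in APCs. Its log2 change was 3.02 (98% bounds 2.98 and 3.05) from BM to SC monocytes and 1.68 (98% bounds 1.64 and 1.71) from BM monocytes to APCs, against 3.06 and 0.01 for Lilrb4a alone. From BM to SC monocytes Lilr4b alone had 4.37 on reads and 4.07 per effective length. Its share of the reads of the locus went from 15.9% to 40.6%. For the whole locus these log2 changes were 3.02 and 2.71. From SC monocytes to APCs the locus is given next. For the locus this step was -1.36 (98% bounds -1.38 and -1.33) on reads and -0.82 per effective length, the latter within a 2-fold change. For Lilrb4a with Gm49339, which encode the same protein sequence, the step was -1.01 (98% bounds -1.04 and -0.98) on reads, against -3.07 for Lilrb4a alone. From BM to SC monocytes the same pair had 2.52 (98% bounds 2.48 and 2.55). These sums, and the shares with Gm49339 added, were chosen after the values had been seen.

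**Figure D4:**
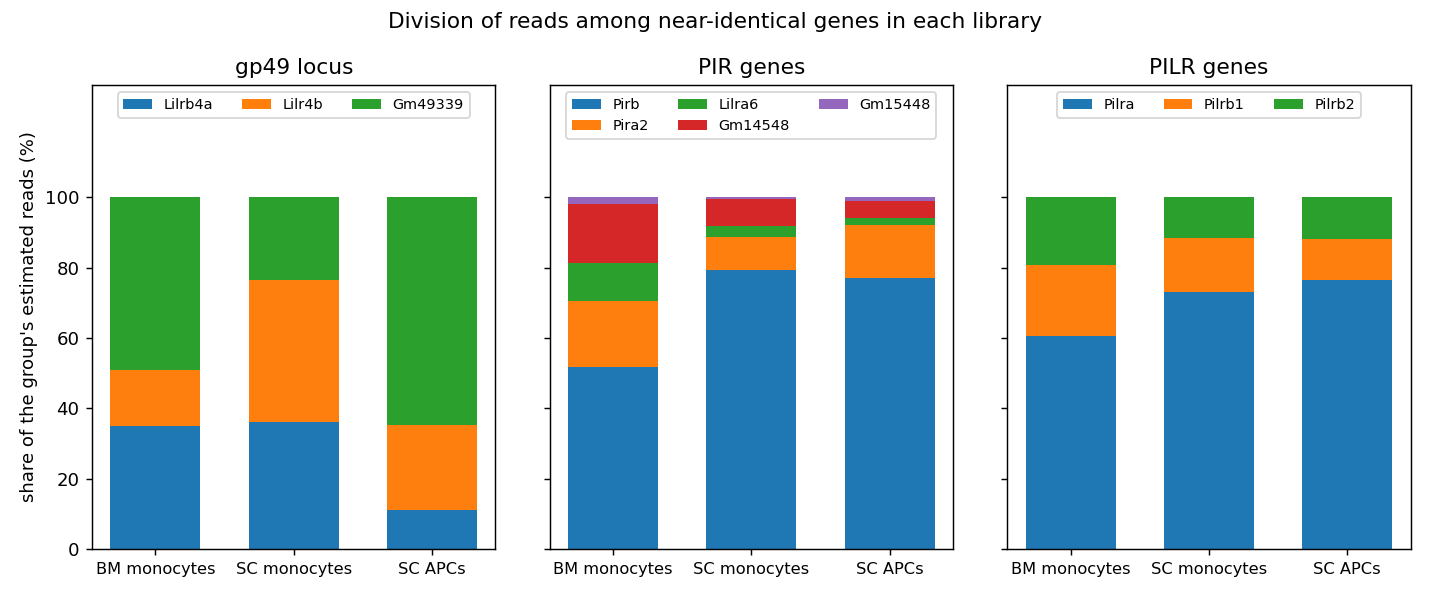
Share of the estimated reads of each near-identical gene group, in percent, taken by each gene in BM monocytes, SC monocytes and SC APCs (stacked bars, no error bars). Gm49339 held 64.6% of the gp49 reads in APCs and 23.4% in SC monocytes, and Pirb held 51.7% of the PIR reads in BM monocytes and over 75% in both SC libraries.

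The activating partners of Pirb fell from BM to SC monocytes, and Pirb itself was not called. The PIR-A type genes Pira2, Lilra6, Gm14548 and Gm15448 have a short tail and pair with the Fc receptor gamma chain. Pira2 went from 142 TPM in BM monocytes to 35.5 TPM in SC monocytes and 61.9 TPM in APCs, and Lilra6 from 119 to 15.2 and 11.6 TPM. All 4 were called lower in SC than in BM monocytes, with a log2 change of -2.03 (98% bounds -2.09 and -1.97) for their sum, against -0.19 for Pirb. Pirb made up 47.3% of the summed TPM of the 5 PIR genes in BM monocytes, 76.5% in SC monocytes and 68.4% in APCs. Gm14548 shared the most windows with Pirb, 821, followed by Pira2 with 781 and Lilra6 with 699. The 5 genes together had a log2 change of -0.81 (98% bounds -0.83 and -0.78) from BM to SC monocytes, which was not called.

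Pilra also gained on its partners. Pilrb1 and Pilrb2, the activating receptors that signal through DAP12, had 43.8 and 49.7 TPM in BM monocytes, 80.9 and 70.8 TPM in SC monocytes and 60.3 and 59.2 TPM in APCs. Pilra made up 39.2% of the summed TPM of the 3 genes in BM monocytes, 59.4% in SC monocytes and 63.3% in APCs. Of their reads, without correction for length, it held 60.6%, 73.1% and 76.5% in the same order. From BM to SC monocytes the log2 change of both partners together was 1.06 (98% bounds 0.93 and 1.19), not called, against 1.88 for Pilra. The sum of all 3 was called, at 1.61 (98% bounds 1.53 and 1.68).

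Of 13 further CD300, PILR and PIR names fixed for the families, 11 were in the common table and 6 were active in BM or SC monocytes, with 1 called higher (Pilrb1) and 3 lower from BM to SC monocytes. Pilrb1 was not called per effective length, at 1.11 (98% bounds 0.93 and 1.28). Cd300lg, known from endothelium, had 71.2 TPM in BM monocytes, 4.64 TPM in SC monocytes and 1.04 TPM in APCs. Cd300ld3 had 2.99, 5.39 and 11.4 TPM, and Lilra5, an activating receptor, 0.051, 1.13 and 3.07 TPM in the same order. Both were called higher in APCs than in BM monocytes. Cd300c had at most 2 reads in a library, and Cd300ld2 and Cd300ld4 had 0 in all of them.

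The adaptors on which the activating partners depend were abundant throughout. Tyrobp had 3077 TPM in BM monocytes, 2597 TPM in SC monocytes and 1675 TPM in APCs, and Fcer1g had 1396, 1728 and 2044 TPM. Hcst, which encodes DAP10, had 62.4, 41.6 and 25.4 TPM. None of the 3 was called in any comparison.

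Of 14 enzymes and adaptors that signal from the ITIM or its activating counterpart, all were active, and 2 were called higher and none lower from BM to SC monocytes. The median log2 change of the list was -0.24. Ptpn6, which encodes SHP-1, had 483 TPM in BM monocytes, 258 TPM in SC monocytes and 310 TPM in APCs, with a log2 change of -0.66 for SC against BM monocytes that was not called. The 2 higher genes were the kinase gene Src, from 0.25 to 35.8 TPM, and the adaptor gene Dok2, from 5.15 to 68.5 TPM. None of the 14 was called between SC monocytes and APCs.

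Genes described as ligands of these receptors were measured in the same cells. Of 15 names, 14 were in the table, 10 were active, and from BM to SC monocytes 4 were called higher and 2 lower. Of the genes for the MHC class I ligands of Pirb, B2m went from 3478 to 10747 TPM and H2-K1 from 917 to 2952 TPM. H2-D1 went from 1523 to 2277 TPM and was not called. Apoe went from 1538 to 8392 TPM, and Fn1, which encodes fibronectin, from 3706 to 1333 TPM. Rtn4, which encodes Nogo, had 240 TPM in BM monocytes and 213 TPM in SC monocytes and was not called. Between SC monocytes and APCs, none of the 14 was called.

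The receptors outside these families moved in both directions as well. Of 15 other inhibitory receptors, 14 were active, and 6 were called higher and 3 lower from BM to SC monocytes, with a median log2 change of 0.93. Fcgr2b, the inhibitory Fc receptor for immunoglobulin G, went from 156 to 1089 TPM, and Lair1, a collagen receptor, from 33.5 to 160.4 TPM. Ceacam1 went from 146 to 15.0 TPM and Clec4a2 from 343 to 94.5 TPM, both called lower. Of 17 other activating receptors, 16 were active, and 12 were called higher and 1 lower, with a median log2 change of 2.20. Trem1 went from 9.43 to 218 TPM and Clec4n from 5.48 to 271 TPM, while Trem3 went from 73.9 to 25.2 TPM.

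The genes whose pattern over the 3 libraries was most like that of a member were found by the distance between centred log2(TPM + 1) profiles, among 10225 genes over 3 TPM in a library. For Cd300lf they were Plek, Adgrf5 and Bcl2l1, at distances of 0.032, 0.045 and 0.051, with 7 genes within 0.1. For Pirb they were Lrrc25, Gtf2a2 and Kbtbd4, at 0.011, 0.012 and 0.013, with 186 genes within 0.1. Serpinb2 and Ramp1 were nearest to Cd300a, at 0.083 and 0.087, followed by Anxa1 at 0.14. Lilrb4a had no gene within 0.1, and Slc15a2, Kcnmb4 and Prm1 were nearest, at 0.27, 0.31 and 0.34. With 3 libraries such distances describe the values and carry no test.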

How the data were processed

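RNA of 3 sorted populations was sequenced as 1 pooled library each. The authors estimated expression with SALMON (version 0.14.1 in the submitters' processing notes) on GENCODE vM22 and pooled the transcripts of each gene. The deposited TPM values carry the correction for effective length and depth made by the authors. The deposited estimated counts carry neither, hold fractions where reads were divided between genes, and were rounded here to whole reads. The APC table came from another transcript set, whose making is not given in the sources used here. The labels place the APC sample in the spinal cord by title and tissue but in the bone marrow in its source field, and the title was followed.

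TPM was rescaled over the 22238 genes common to the 3 libraries, with 95% Wilson intervals and a floor of 3 reads. The definition of GFold was computed anew with 1 read added, on all common genes, and checked on simulated data. With 1 library per population there is no test of the conditions and no p-value. GENCODE M21 (GRCm38) gave the symbols, transcripts and coordinates, with identifier and version equal for 99.0% of the common genes. Sequence sharing was counted in 50-base windows, the length of a single read, and took no account of the paired mate. It is therefore not a share of reads that could not be assigned. All 10 members were named, and of other lists the active family genes, the adaptors and the most abundant or most changed genes. The members and lists were chosen with earlier results of these data known. Alternatives were other scalings, effective length, an assumed spread, other TPM filters and reads added, plain TPM ratios, summed paralogs, and windows of 31 bases or protein-coding transcripts only. The tools were Python 3.11.15 with scipy 1.17.1, numpy 2.4.6 and pandas 2.3.3, matplotlib 3.10.9 for figures, and edgeR 4.0.16 in R 4.3.3 for TMM factors only.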

Additional observations from a re-analysis of the deposited data

Results flagged for a closer look

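Reads were also assigned to PIR-like genes that are listed in the monocyte tables only and so lie outside every comparison above. They are given because they share at least 100 of the 50-base windows with Pirb and had reads above the limit of 3. Gm15922, a polymorphic pseudogene at chr7:3731630-3739889 in GRCm38 that shares 615 windows with Pirb, had 2783.1 reads in BM monocytes and 812.0 in SC monocytes. Gm10693 had 553.3 reads in BM monocytes and 44.1 in SC monocytes, and Gm15925 had 31.1 and 9.4. Gm15931 went the other way, with 120.4 reads in BM monocytes and 331.3 in SC monocytes. Gm15930 had 3.5 reads in BM monocytes and 0 in SC monocytes. Pirb itself had 24794 and 15823 reads in these libraries. There are no control samples, and whether reads of these genes were given to Pirb or its partners in the APC library was not tested.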

How the results depend on the processing

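With 1 library per population, the spread between mice is unknown, and the depth limits only Cd300e. An assumed coefficient of variation of 0.2 between libraries left 3 members called higher and 1 lower from BM to SC monocytes, and 3 higher and 1 lower for APCs against BM monocytes. Over all active genes it left 899 higher and 454 lower of 10072, and 970 higher and 493 lower of 10190. With 0.4, the counts were 3 higher and 0 lower from BM to SC monocytes, 1 lower from SC monocytes to APCs, and 0 higher and 1 lower for APCs against BM monocytes. Over all active genes, 619 were higher and 222 lower, 43 and 14, and 719 and 224 in the same order of comparisons. Lilrb4a, Lilr4b and Cd300lf were the members called higher from BM to SC monocytes under both coefficients. Without a filter on TPM, 1 member, Cd300e, was called higher from SC monocytes to APCs, and it was called higher for APCs against BM monocytes too.

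Summing the reads of paralogs, with or without Gm49339, Gm14548 and Gm15448 (the second set was chosen after seeing the data), left 1 member called lower in SC than in BM monocytes and 1 in APCs than in BM monocytes. Under both sums Cd300c2, called higher alone, had the joint value of its sum with Cd300a, which was not called. That was -0.40 for SC against BM monocytes and -0.27 for APCs against BM monocytes on the log2 scale. Per effective length these were 0.14 and 0.26, so the sign depended on the scale. Cd300ld, added to Cd300lf, took the value of the sum, called higher at 2.59 and 2.15 in these comparisons. Its 761 reads in SC monocytes stood beside 14116 of Cd300lf, so the call is no result on Cd300ld itself. Lilrb4a, added to Lilr4b, became called higher for APCs against BM monocytes, at 1.15 without and 1.68 with Gm49339. Total reads, TMM factors, effective length, 0.5 reads added, a TPM over 4, plain 2-fold ratios of TPM plus 1 or 0.1, and all genes of the monocyte tables left the call of every member as it was. Over all active genes the balance of calls did move with the scale. From BM to SC monocytes 1369 genes were called higher and 1104 lower, against 1315 and 1890 by a ratio of TPM plus 1, and 619 and 222 with a coefficient of variation of 0.4. From SC monocytes to APCs these were 189 and 162, against 232 and 324 per effective length and 43 and 14 with that coefficient. The share of windows in common rose to 55.7% in Lilrb4a, 43.8% in Pirb and 37.2% in Lilr4b with windows of 31 bases. No paired analysis was possible because each population has 1 library.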

Other observations

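Besides the neutrophil, granulocyte precursor and microglia markers given above, markers of other cells were also detected. The 8 T and NK cell markers summed to 0.54 TPM in BM monocytes, 36.8 TPM in SC monocytes and 52.2 TPM in APCs, and 5 were called higher in SC than in BM monocytes. The 7 endothelial markers summed to 8.75, 82.8 and 52.8 TPM in the same order, with 4 called higher. The 6 cDC markers summed to 40.8, 21.3 and 28.3 TPM, the 6 markers of CNS-associated macrophages to 15.7, 36.8 and 51.1 TPM, and the 5 oligodendrocyte markers to 73.1, 54.7 and 53.1 TPM. Mast cell and basophil markers summed to between 2.22 and 7.82 TPM.

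Some receptors of other families were called higher in APCs than in SC monocytes, 2 of 13 active inhibitory and 2 of 16 active activating ones. None of the 9 active CD300 and paired receptors was, which is near the 1.94% of all active genes. Cd72 went from 12.6 to 32.0 TPM and Cd22 from 11.8 to 27.4 TPM, both inhibitory receptors best known from B cells. Among the activating receptors, Clec4n went from 271 to 539 TPM and Siglech, one of the microglia markers, from 15.2 to 44.4 TPM. Trem3 was called lower, from 25.2 to 8.12 TPM.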
